A study of Mus musculus with 7 samples.

Results

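Mitochondrial ribosomal protein genes are the nuclear genes that encode the protein part of the ribosome inside mitochondria. The members were the protein-coding rows of the deposited count table whose symbol starts with Mrpl or Mrps followed by a digit, which gave 78 of the table's 57010 rows, 49 with an Mrpl symbol and 29 with an Mrps symbol. They are called large and small subunit genes here by symbol alone, although Mrps18a, by its protein, belongs to the large subunit and Mrps36 to another complex. The rule used symbols and no measured value. Poly-A RNA was measured in Tim4+ resident macrophages sorted from the peritoneal fluid of C57BL/6 mice, in 4 libraries of mice injected with m204 MTO and sampled at day 12, and in 3 libraries of mice in steady state. Tim4 binds phosphatidylserine on dying cells and is found on resident macrophages that persist in the cavity. The labels do not spell out MTO, the series title is about colorectal cancer in the peritoneum, and the labels give neither age nor sex of the mice. Live cells were gated on Tim4, CD11b and MHC class II, and the labels state that the sorted cells were over 97% pure.

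The mitochondrial ribosome translates the few mRNAs that the mitochondrial genome encodes, all of which specify subunits of the respiratory chain and of ATP synthase. Its ribosomal RNAs come from mitochondrial DNA, whereas its proteins are made in the cytosol from nuclear genes and imported, so that building a particle needs transcripts of both genomes. Compared with a bacterial ribosome it has less RNA and more protein, and many of its proteins have no bacterial counterpart. In macrophages the capacity for respiration is known to differ between activation states.

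Library totals ranged from 34578834 to 38586694 counts at day 12 and from 32077050 to 36201021 in steady state. The 78 members together held 0.140% to 0.161% of the counts of a day 12 library and 0.131% to 0.140% of those of a steady-state library. All 8 resident macrophage markers were detected in every library. Among them, Timd4 and Itgam encode Tim4 and CD11b, on which the cells were gated, so that their detection is no separate check of the label. Of these markers Adgre1, Itgam and Gata6 rose at day 12 (log2 fold changes 0.88, 0.68 and 0.49 with edgeR) and Timd4 and Csf1r fell (-0.96 and -0.43), with a median of 0.25 over the 8. Timd4, which encodes Tim4, had 399 to 643 CPM at day 12 and 882 to 1043 CPM in steady state. Marker sums of other cell types were small in both groups. They came to 7.49 to 20.0 CPM at day 12 and 3.25 to 5.01 CPM in steady state for 5 B cell genes, to 1.98 to 3.05 and 0.112 to 0.356 CPM for 7 epithelial genes, and to at most 1.93 CPM in any library for T cell, mast cell and eosinophil, mesothelial, fibroblast and erythroid genes. The 5 neutrophil genes summed to 109 to 198 CPM at day 12 and 431 to 447 CPM in steady state, nearly all of it from Csf3r, while Ly6g and Mpo had no read. The summed level of 21 cell cycle genes overlapped between the groups, at 189 to 528 CPM at day 12 and 331 to 923 CPM in steady state. Their median log2 fold change was nonetheless -0.99, with 1 of 21 above 0. With edgeR and DESeq2 0 of them were called, and with limma-voom 1 was called lower. The part of these differences in the results on the members was not tested.

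Levels are given as TMM-normalised CPM (reads of a gene relative to the library's total), in the order of replicates 1 to 4 at day 12 and 1 to 3 in steady state. Of the 78, 77 passed the filter on low counts, with mean levels over all libraries between 2.43 CPM (Mrpl23) and 47.1 CPM (Mrpl24), and no tested member had fewer than 74 reads in a library. The remaining member, Mrpl53, had 1 read over all 7 libraries, and the table places it entirely inside the same-strand gene Gm42688, which had 724 reads.

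To compare genes with one another, mean CPM was divided by the length of the principal transcript in kilobases. On this scale the 77 tested members lay between 2.60 (Mrpl47) and 76.6 CPM per kb (Mrpl33), with a median of 10.9 CPM per kb, and 49 of them were within 2-fold of that median. The median of all genes tested was 6.18 CPM per kb, and the principal transcripts of the members were short, with a median of 1316 bases against 2513 bases. Large subunit genes had a median of 11.5 CPM per kb and small subunit genes 9.07 CPM per kb. The highest levels per kb were those of Mrpl33, Mrpl52, Mrps15, Mrpl42 and Mrps21, in this order, all of them genes with short transcripts. Mrpl33 had 62.3 CPM per kb at day 12 and 95.5 CPM per kb in steady state, and Mrpl52 had 64.1 CPM per kb at day 12 and 36.3 CPM per kb in steady state.

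The comparison asked how transcripts of the mitochondrial ribosome differed in these macrophages 12 days after MTO injection. Most members were slightly higher at day 12, by amounts well under 2-fold, and few passed the test. The fitted log2 fold change of day 12 over steady state was above 0 in 63 of 77 tested members and below 0 in 14, with a median of 0.17 (interquartile range 0.063 to 0.32), against a median of 0.003 and a positive share of 50.3% over all 15981 genes in the test. At an adjusted p of 0.05 in edgeR's quasi-likelihood fit, 8 members rose (10.4%) and 1 fell (1.299%), while over all genes tested 10.1% rose, 10.2% fell and 20.3% changed in either direction. The share of members that rose was thus near the background. Most of these calls needed all 3 steady-state libraries. Leaving out steady-state replicate 1, 2 or 3 left Mrpl52 and Mrps18b as the only members called higher and Mrpl33 as the only one called lower, each time, and without the filter on low counts 4 members were called higher. The share of all genes called was lower in these settings too, at 10.7% to 11.3% without 1 steady-state replicate and 11.6% without the filter. With DESeq2 11 members were called higher, and of all 15981 genes 2098 were.

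Without regard to the test, all 4 day 12 libraries lay above all 3 steady-state libraries in 22 members (28.6%) and below them in 5 (6.49%), against 16.5% and 18.5% of all genes tested. The groups thus did not overlap in 35.1% of the members and in 35.004% of all genes. Replicates of members were close together, with a median within-group SD of 0.15 on the log2 scale, against 0.24 over all genes tested. This was not particular to them, since the SD was 0.15 for cytosolic ribosomal protein genes and 0.17 for nuclear complex I genes. The 95% interval of the log2 fold change stayed within 2-fold in either direction for 76 of the 77 tested members, the exception being Mrpl52. It did so for 77 of 80 tested cytosolic ribosomal protein genes, 33 of 37 nuclear complex I genes and 10172 of all 15981 genes. Summed over the 78 members, the level was 1421, 1511, 1417 and 1612 CPM at day 12, and 1386, 1366 and 1340 CPM in steady state. Every day 12 sum was above every steady-state sum, and the ratio of the group means was 1.09, both for large (1.09) and for small subunit genes (1.097). In these bulk samples, fewer cells of a type and less RNA per cell cannot be told apart.

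**Figure D1:**
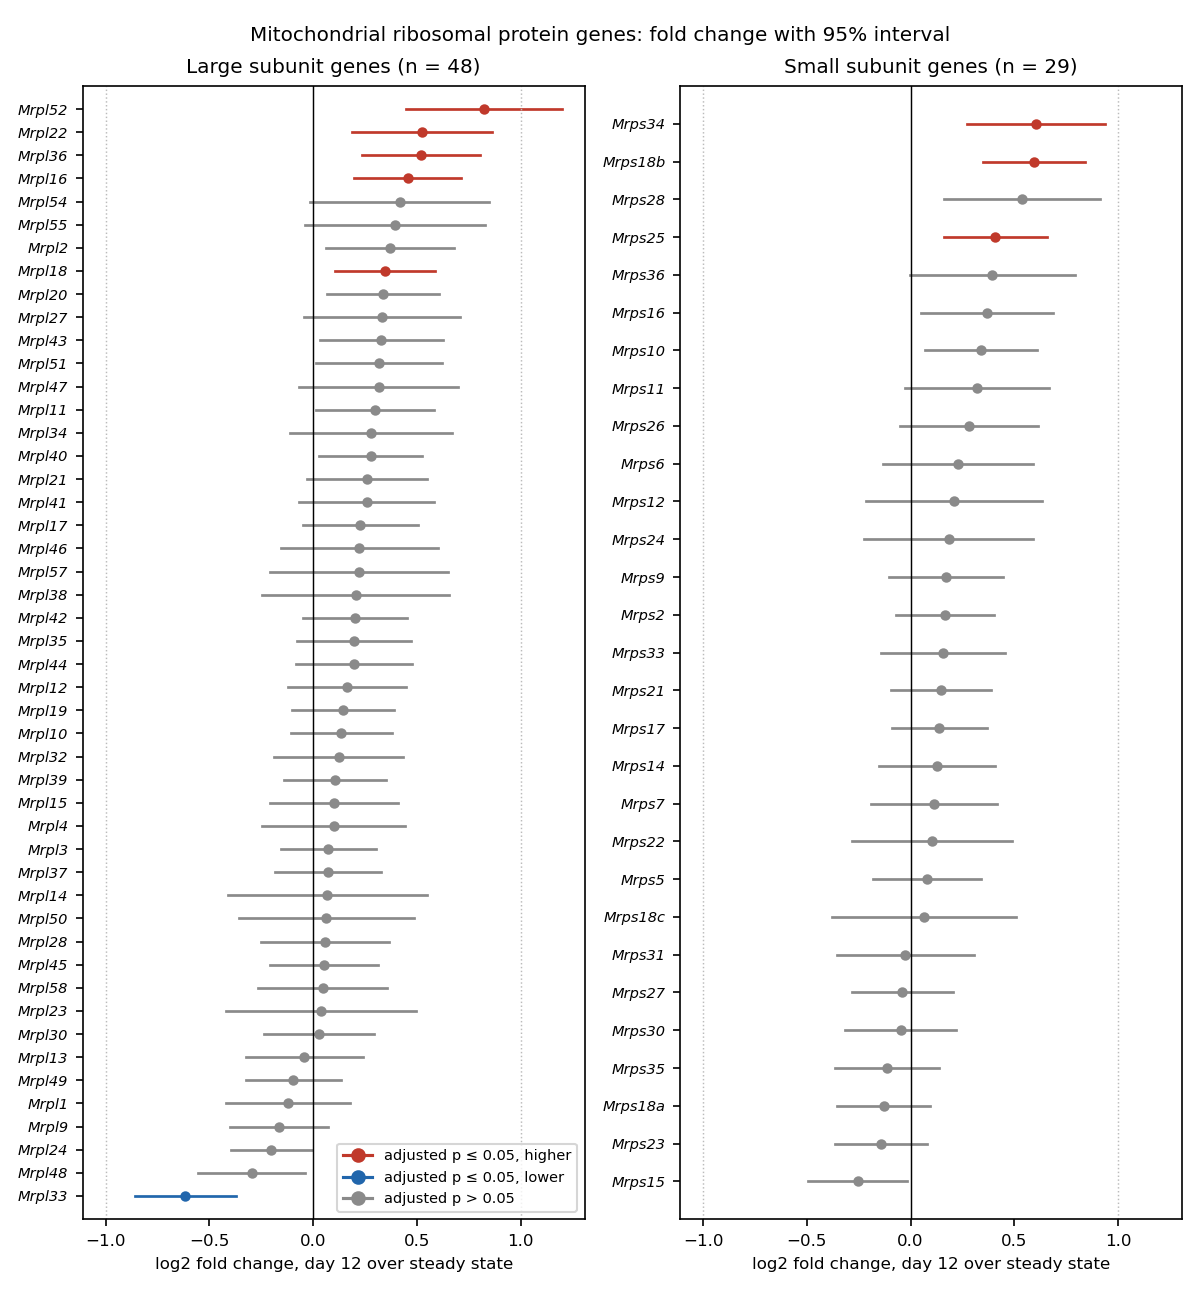
Log2 fold change of day 12 over steady state (x axis) with its 95% interval for each of the 48 large subunit (left panel) and 29 small subunit genes tested (right panel), sorted by fold change. Members higher with an adjusted p of at most 0.05 are red, the lower member is blue and others are grey. Most points lie right of 0 and within the dotted lines at 2-fold, and Mrpl52 and Mrpl33 sit at the ends.

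**Figure D2:**
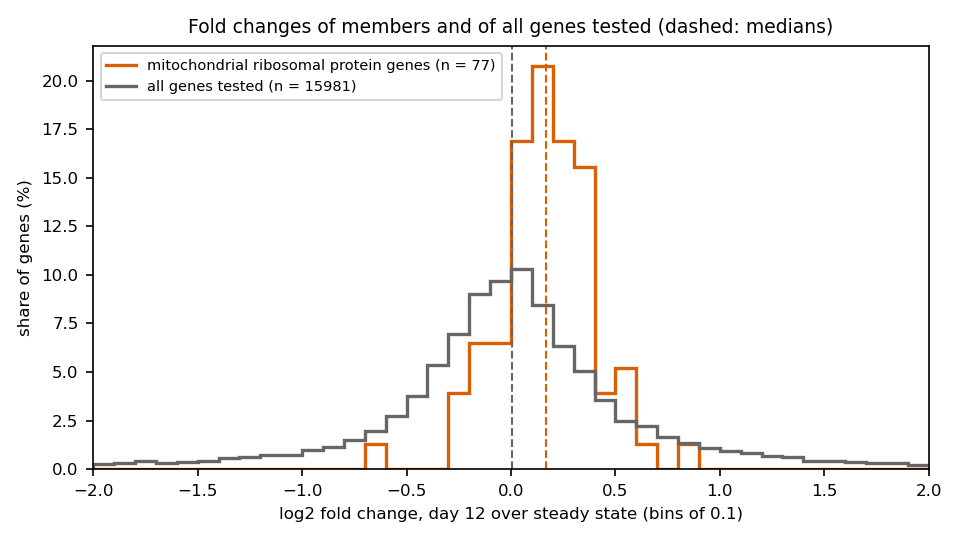
Share of genes (y axis, %) by log2 fold change of day 12 over steady state (x axis, bins of 0.1, shown from -2 to 2) for the 77 mitochondrial ribosomal protein genes and for all 15981 genes tested, with dashed lines at the medians. The members form a narrow peak to the right of 0, with a median of 0.17 against 0.003 for all genes.

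The plot of fold changes by gene shows Mrpl33 and Mrpl52 apart from a closer series that runs from Mrpl48 (-0.30) to Mrps34 (0.60), and the histogram shows that they spread less than genes at large. By subunit, 5 of 48 tested large subunit genes rose (10.4%) and 1 fell, with 41 log2 fold changes above 0 and a median of 0.20. Among 29 small subunit genes 3 rose (10.3%) and 0 fell with edgeR, DESeq2 and limma-voom also calling 0 lower and 1 being lower at an unadjusted p under 0.05, and the median was 0.16 with 22 above 0. Members were also split by whether their protein has a counterpart in the bacterial ribosome, a split made after values were seen. Of 46 tested members with such a counterpart, 4 (8.70%) rose and 1 fell (median log2 fold change 0.16, with 40 above 0). Of 31 tested members specific to mitochondria, 4 (12.9%) rose and 0 fell (median 0.20, with 23 above 0), with 0 lower also by DESeq2 and limma-voom and 1 lower at an unadjusted p under 0.05 with edgeR. Mrps18b, which rose, was counted among the latter although it is a paralogue of bacterial S18, and the shares of both classes depend on that placement. All 4 shares of genes that rose were near the 10.1% of all genes tested.

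Mrpl52, a protein of the large subunit with no bacterial counterpart, showed the largest rise among the members (ENSMUSG00000010406, GRCm39 chromosome 14, 54664366 to 54667213). It had 23.2, 24.7, 23.7 and 35.5 CPM at day 12, against 14.1, 16.4 and 14.97 CPM in steady state. All day 12 libraries were above all steady-state libraries, and day 12 replicate 4 stood above the other 3. The log2 fold change was 0.82 (SE 0.17, 95% interval 0.45 to 1.20, edgeR adjusted p = 0.00824), and it was called in all 14 alternative analyses, also without day 12 replicate 4.

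Mrps18b is a paralogue of the bacterial small subunit protein S18 and sits in the small subunit (ENSMUSG00000024436, GRCm39 chromosome 17, 36221271 to 36227281). It had 22.03, 22.003, 19.3 and 21.99 CPM at day 12, against 15.1, 13.2 and 14.05 CPM in steady state. The groups were far apart, with day 12 replicate 3 below its 3 near-equal companions. The log2 fold change was 0.59 (SE 0.11, 95% interval 0.35 to 0.84, edgeR adjusted p = 0.00522), and the call held in all 14 alternatives.

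Mrpl33, the counterpart of bacterial L33, was the single member that fell (ENSMUSG00000106918, GRCm39 chromosome 5, 31754279 to 31821728). It had 31.7, 32.9, 28.2 and 26.4 CPM at day 12, against 46.3, 46.8 and 43.9 CPM in steady state. Every day 12 library was below every steady-state library, with day 12 replicate 4 the lowest. The log2 fold change was -0.62 (SE 0.11, 95% interval -0.86 to -0.37, edgeR adjusted p = 0.00409), and the fall was called in all 14 alternatives. In the table the gene overlaps Rbks on the other strand, which had 976 reads against 9098 of Mrpl33, and Gm43809 on the same strand, which had 0.

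The promoter windows of these 3 genes are shown because theirs were the calls that no alternative removed. The sequences are RefSeq's for GRCm38.p6, from 250 bases before to 50 bases after the gene's start, 5′ to 3′ on the gene's strand. They are at chr14:54426659-54426958 on the plus strand for Mrpl52, at chr17:35916391-35916690 on the minus strand for Mrps18b and at chr5:31613701-31614000 on the plus strand for Mrpl33. Capitals mark matches, on either strand, to a core of the NRF1 site (GCGCATGC), an ETS core (CCGGAAG), a YY1 word (AAGATGG) or an E-box (CACGTG).
Mrpl52: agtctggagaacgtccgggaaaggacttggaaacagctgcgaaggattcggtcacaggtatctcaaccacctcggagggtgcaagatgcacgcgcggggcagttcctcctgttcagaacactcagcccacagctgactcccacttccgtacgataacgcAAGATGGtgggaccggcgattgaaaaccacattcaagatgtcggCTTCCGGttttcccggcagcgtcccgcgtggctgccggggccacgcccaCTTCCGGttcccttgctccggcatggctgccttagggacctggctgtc
Mrps18b: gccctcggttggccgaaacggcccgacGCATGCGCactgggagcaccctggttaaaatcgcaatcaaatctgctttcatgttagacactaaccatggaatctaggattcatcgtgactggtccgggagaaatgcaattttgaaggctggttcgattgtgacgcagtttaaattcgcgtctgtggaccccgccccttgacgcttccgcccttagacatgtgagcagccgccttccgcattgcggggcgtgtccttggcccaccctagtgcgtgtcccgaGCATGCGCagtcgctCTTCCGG
Mrpl33: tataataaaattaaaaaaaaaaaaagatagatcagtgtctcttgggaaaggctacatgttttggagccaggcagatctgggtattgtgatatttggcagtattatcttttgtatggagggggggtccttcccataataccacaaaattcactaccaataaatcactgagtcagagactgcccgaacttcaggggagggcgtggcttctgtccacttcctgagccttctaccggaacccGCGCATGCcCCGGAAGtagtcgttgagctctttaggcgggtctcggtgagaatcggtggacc
The Mrpl52 window held a pair of ETS cores and the YY1 word, the Mrps18b window a pair of NRF1 cores and an ETS core, and the Mrpl33 window an NRF1 core and an ETS core close by. No match overlapped another in these 3 windows. The gene that fell and a gene that rose both carried NRF1 and ETS words. Both words were also in the windows of Mrpl22, which rose, and of Mrpl17, which was not called. Neither word was in those of Mrpl16 and Mrps25, which rose. A relation of these words to the changes was not tested.

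Over all members, 69 had a promoter in the table, with 75 windows of 300 bases. The ETS core was found in 34.7% of these windows, against 8.86% of all 32851 windows in the table. The NRF1 core was found in 10.7% against 2.71%, the YY1 word in 17.3% against 6.34%, and the E-box in 9.33% against 7.15%. Some genes have several overlapping windows, 3 of them for Mrpl2, which all hold the same E-box. Counted once per gene, the ETS core was found in 37.7% of the 69 members against 9.93% of 27025 genes, the NRF1 core in 11.6% against 3.05%, the YY1 word in 18.8% against 7.28% and the E-box in 7.25% against 8.09%. The background was not limited to the 15981 genes tested and so held genes that did not pass the filter here. No set of other expressed genes was set beside the members, so the shares are not shown to be particular to them. These matches describe letters in a window and not bound sites. Nrf1 itself, a transcription factor known for activating nuclear genes of mitochondrial proteins, fell, with 19.99, 19.4, 19.4 and 19.1 CPM at day 12 and 29.8, 28.7 and 30.8 CPM in steady state (log2 fold change -0.61, SE 0.09, edgeR adjusted p = 0.00205). All its day 12 values were within a narrow range below all steady-state values.

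Among the other large subunit genes that rose, Mrpl36 encodes the counterpart of a small zinc-binding bacterial protein (chromosome 13). It had 25.7, 26.8, 25.4 and 33.4 CPM at day 12, against 18.8, 20.6 and 18.9 CPM in steady state (log2 fold change 0.52, SE 0.13, edgeR adjusted p = 0.0189). Mrpl22, whose bacterial counterpart lines the exit tunnel for the nascent protein, is on chromosome 11. It was among the lowest members, with 7.28, 8.06, 7.86 and 9.02 CPM at day 12 and 5.99, 5.04 and 5.78 CPM in steady state (log2 fold change 0.52, SE 0.15, edgeR adjusted p = 0.0368). In both genes the groups did not overlap and day 12 replicate 4 was the highest library.

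Mrpl16, counterpart of a bacterial protein near the peptidyl transferase centre, had 17.1, 18.2, 15.6 and 15.8 CPM at day 12, against 12.7, 11.4 and 12.3 CPM in steady state (log2 fold change 0.46, SE 0.11, edgeR adjusted p = 0.0217). Mrpl18, counterpart of a bacterial protein of the central protuberance, had 26.2, 27.9, 25.03 and 25.8 CPM at day 12, against 22.7, 20.3 and 18.9 CPM in steady state (log2 fold change 0.35, SE 0.11, edgeR adjusted p = 0.0497). Neither gene had its highest value in day 12 replicate 4, and all day 12 libraries were above all steady-state libraries in both. Mrpl18 was the member just inside the threshold. It lost its call in 7 of 14 alternatives, among them without day 12 replicate 1, 2 or 3, and it overlaps 645 bases of Tcp1 on the other strand, which had 33613 reads against 6024 of Mrpl18.

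**Figure D3:**
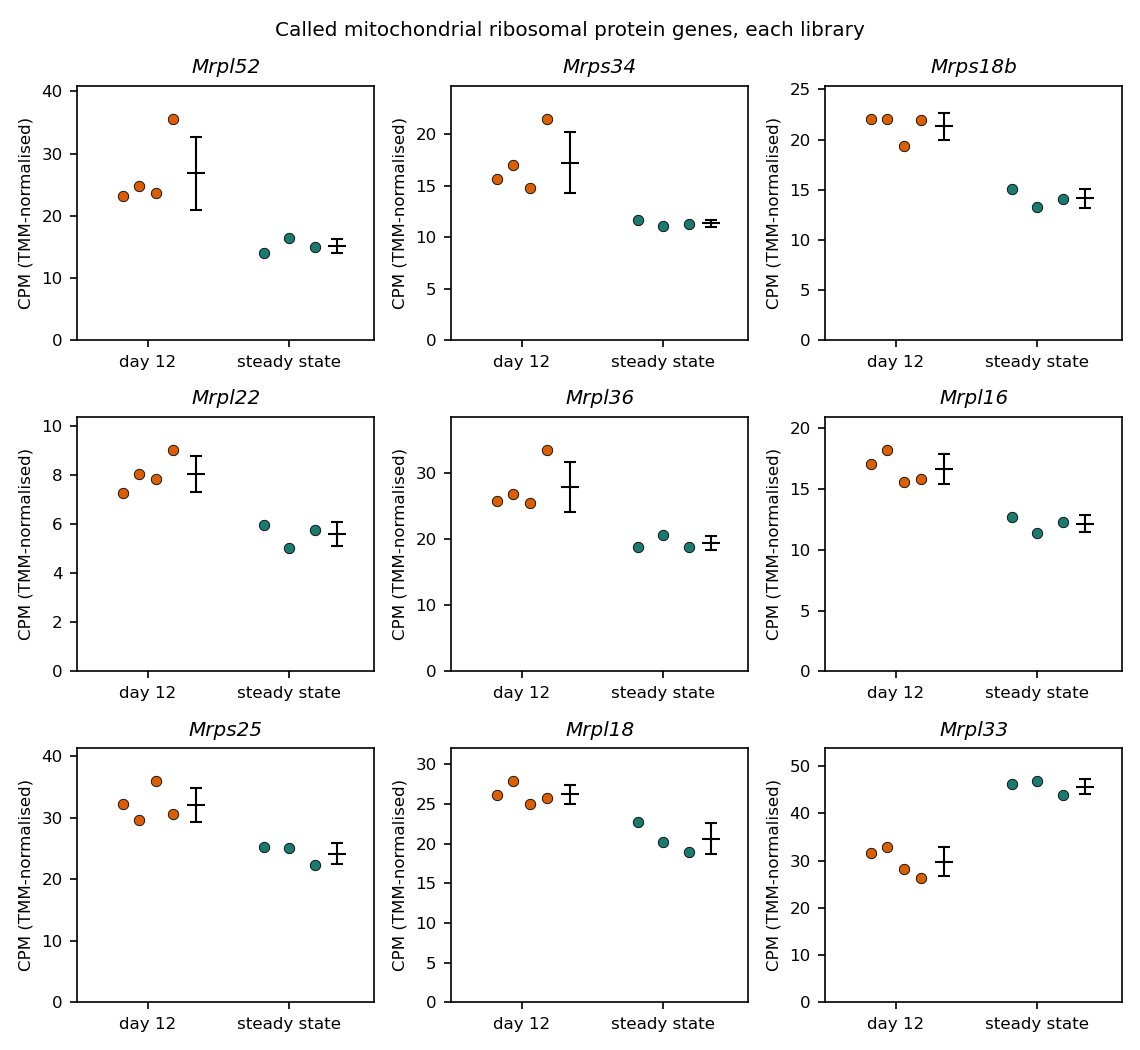
CPM (y axis, from 0) of the 9 members with an adjusted p of at most 0.05, with the 4 day 12 libraries (orange, replicates 1 to 4 from left to right) and the 3 steady-state libraries (green) as points and the mean ± SD as bars beside them. In all 9 panels the groups do not overlap, and Mrpl33 is the only one with day 12 below. Day 12 replicate 4 stands highest in Mrpl52, Mrps34, Mrpl22 and Mrpl36.

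Of the small subunit, Mrps34 and Mrps25 also rose, both proteins without a bacterial counterpart. Mrps34, mutations of which cause a form of Leigh syndrome in people, had 15.6, 17.1, 14.8 and 21.5 CPM at day 12, against 11.6, 11.1 and 11.3 CPM in steady state (log2 fold change 0.60, SE 0.15, edgeR adjusted p = 0.0193). Mrps25 had 32.3, 29.7, 35.97 and 30.6 CPM at day 12, against 25.3, 25.03 and 22.3 CPM in steady state (log2 fold change 0.41, SE 0.11, edgeR adjusted p = 0.0294). The steady-state values of Mrps34 lay close together and those of day 12 did not, whereas Mrps25 was spread in day 12 with its highest value in replicate 3. Mrps34 lies within Mapk8ip3 on the other strand, which had 23622 reads against 3714 of Mrps34, and Mrps25 shares 4770 bases with Nr2c2, which had 15403 reads against 7269.

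Over the 14 alternatives the adjusted p ranged from 0.00194 to 0.0833 for Mrps34, from 0.00189 to 0.088 for Mrpl36 and from 0.00201 to 0.107 for Mrpl16. It ranged from 0.00646 to 0.143 for Mrps25, from 0.0067 to 0.162 for Mrpl22 and from 0.0143 to 0.207 for Mrpl18. Beside the loss of all 6 calls without any steady-state library, Mrps25 was lost without day 12 replicate 1 or 3, and Mrpl22 without day 12 replicate 2 or 3. Without the filter on low counts, Mrpl16, Mrpl18, Mrpl22 and Mrps25 lost their calls. The fold changes themselves moved little, with log2 values of 0.48 to 0.67 for Mrps34 and of 0.28 to 0.44 for Mrpl18.

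Mrps18b could be set against its paralogues, since mammals have 3 proteins related to bacterial S18 that occupy different places in the ribosome. Mrps18a, whose protein belongs to the large subunit in spite of its symbol, had 18.1, 20.3, 18.3 and 18.6 CPM at day 12 and 20.9, 19.9 and 21.01 CPM in steady state. Mrps18c, the counterpart at the place of bacterial S18, had 11.7, 12.03, 11.2 and 7.28 CPM at day 12 and 11.9, 9.46 and 8.97 CPM in steady state. Both overlapped between the groups and neither passed the test (log2 fold change -0.13, adjusted p = 0.403, 95% interval -0.35 to 0.095, and 0.065, adjusted p = 0.852, 95% interval -0.38 to 0.51).

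The log2 ratio of Mrps18b over Mrps18a within a library was 0.28, 0.11, 0.079 and 0.24 at day 12, against -0.47, -0.59 and -0.58 in steady state. In CPM every day 12 ratio was above 0 and every steady-state ratio below, but CPM does not take length into account. Per kilobase of transcript Mrps18a was above Mrps18b in all 7 libraries, with means of 21.3 and 19.8 CPM per kb at day 12 and 23.3 and 13.1 CPM per kb in steady state. The genes were nearly level in day 12 replicates 1 and 4, with log2 ratios per kb of Mrps18b over Mrps18a of -0.0071 and -0.048. Their order there depends on the transcript chosen for each gene. The difference in log2 ratio of day 12 minus steady state, which does not depend on length, was 0.72 for Mrps18b over Mrps18a, 0.55 for Mrps18b over Mrps18c and -0.18 for Mrps18a over Mrps18c. These ratios are a description without a test, since Mrps18b was already called between the same groups.

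**Figure D4:**
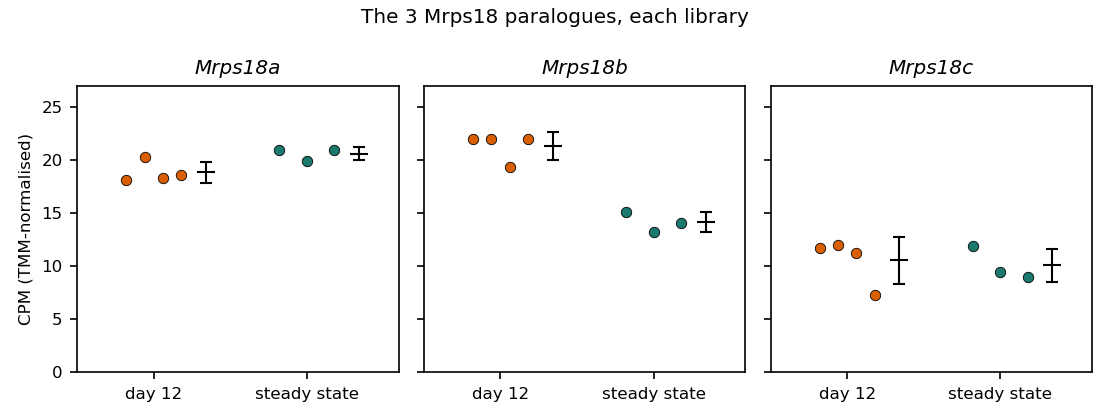
CPM (y axis, from 0, shared by the panels) of Mrps18a, Mrps18b and Mrps18c in the 4 day 12 libraries (orange) and the 3 steady-state libraries (green), with the mean ± SD beside the points. Mrps18b separates by group, whereas Mrps18a and Mrps18c overlap between the groups, and day 12 replicate 4 is the lowest library for Mrps18c at 7.28 CPM.

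Other functional parts of the ribosome showed small differences that did not pass the test. Mrpl12 belongs to the stalk that contacts translation factors and also binds the mitochondrial RNA polymerase, and it had 21.1, 24.3, 21.3 and 28.05 CPM at day 12 and 21.96, 20.997 and 20.5 CPM in steady state (log2 fold change 0.16, SE 0.13, edgeR adjusted p = 0.406). Mrpl11, which forms the base of the stalk, had 15.97, 18.4, 14.6 and 18.9 CPM at day 12 and 13.5, 14.3 and 13.6 CPM in steady state (log2 fold change 0.30, SE 0.13, edgeR adjusted p = 0.128). Values overlapped in Mrpl12, whose log2 fold change was 0.074 without day 12 replicate 4, and did not overlap in Mrpl11.

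Mrpl58, a peptidyl-tRNA hydrolase that rescues stalled ribosomes and became part of the large subunit, had 17.8, 21.5, 17.4 and 24.2 CPM at day 12 and 20.5, 18.5 and 19.8 CPM in steady state (log2 fold change 0.046, SE 0.14, edgeR adjusted p = 0.849). The groups overlapped fully, and the sign of its small difference changed without day 12 replicate 4 (log2 fold change -0.048). Mrpl23, known from bacteria to sit at the mouth of the exit tunnel, was the lowest tested member and had 2.46, 2.19, 2.79 and 2.41 CPM at day 12 and 2.67, 2.07 and 2.46 CPM in steady state (log2 fold change 0.037, SE 0.20, edgeR adjusted p = 0.921). Its processed pseudogene Mrpl23-ps1 is listed with 5232 reads over all libraries, against 610 of Mrpl23 itself. No label says how the counting shared reads between near-identical copies, so that the level of Mrpl23 is uncertain.

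The most abundant members in CPM were Mrpl24, Mrpl3, Mrps15 and Mrpl33, and 3 of these 4 had lower means at day 12. Mrpl24, whose bacterial counterpart starts assembly of the large subunit, had 44.7, 45.3, 42.3 and 44.8 CPM at day 12 and 51.9, 49.9 and 51.1 CPM in steady state (log2 fold change -0.20, SE 0.09, edgeR adjusted p = 0.135). Mrps15, of the platform of the small subunit, had 35.2, 34.3, 33.1 and 40.9 CPM at day 12 and 41.3, 44.7 and 42.4 CPM in steady state (log2 fold change -0.25, SE 0.11, edgeR adjusted p = 0.123). In both, all day 12 libraries were below all steady-state libraries without a call at the threshold, and both were called lower without day 12 replicate 4. Mrpl3, whose bacterial counterpart reaches towards the peptidyl transferase centre, had 43.8, 44.8, 48.1 and 38.9 CPM at day 12 and 41.5, 40.7 and 43.1 CPM in steady state (log2 fold change 0.073, SE 0.10, edgeR adjusted p = 0.665). Its groups overlapped. Of the remaining members, Mrpl48 (log2 fold change -0.30, adjusted p = 0.1004) and Mrps23 (-0.14, adjusted p = 0.344) also had all day 12 libraries below those of steady state.

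Just outside the threshold stood Mrps28, assigned to the place of bacterial S1 and the member closest to a call. It had 7.89, 8.67, 6.84 and 9.37 CPM at day 12, against 5.57, 6.33 and 5.04 CPM in steady state (log2 fold change 0.54, SE 0.17, edgeR adjusted p = 0.0503). Its groups did not overlap. The next largest differences without a call were those of Mrpl54, with 9.29, 11.6, 9.94 and 15.8 CPM at day 12 and 8.803, 8.29 and 9.098 CPM in steady state (log2 fold change 0.42, SE 0.19, edgeR adjusted p = 0.159), and of Mrps36. Mrps36, now also known as Kgd4, a subunit of the alpha-ketoglutarate dehydrogenase complex, had 5.48, 6.96, 5.26 and 5.13 CPM at day 12 and 4.42, 4.62 and 3.99 CPM in steady state (log2 fold change 0.39, SE 0.18, edgeR adjusted p = 0.1498). Both genes had all day 12 libraries above all steady-state libraries, and without day 12 replicate 4 the log2 fold change of Mrpl54 was 0.24. The pseudogenes Mrps36-ps1 and Mrps36-ps2 are listed with 1282 and 529 reads, against 1300 of Mrps36. Mrps6, a neighbour of Mrps18 proteins in the bacterial platform, was also among the lowest members, with 6.06, 5.199, 6.26 and 5.105 CPM at day 12 and 4.74, 5.12 and 4.63 CPM in steady state (log2 fold change 0.23, SE 0.16, edgeR adjusted p = 0.3603). The groups overlapped, and the gene shares 29152 bases with Slc5a3 on the same strand.

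Of the 68 members without a call, 55 had a log2 fold change above 0 and 13 below. An unadjusted p under 0.05 was reached by 21 of the 77 tested members, called members included, against 5421 of all 15981 genes. The log2 fold changes of the members without a call ran from -0.30 (Mrpl48) to 0.54 (Mrps28), and a p that misses the threshold does not show that the groups were equal.

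Day 12 replicate 4 stood apart within its group. It was the highest of the 4 day 12 libraries in 41 of the 77 tested members and the lowest in 15, while replicates 1, 2 and 3 were the highest in 9, 20 and 7. Its log2 difference from the mean of the other day 12 libraries was related to the GC content of the transcript. Across the 77 members Pearson's r was 0.58 and Spearman's rho 0.57, and across 15635 genes tested with a known transcript r was 0.58 and rho 0.66. Genes of a library share its depth and preparation, so these are descriptions. The highest such difference was that of Mrpl38 (0.78 at 59.6% GC) and the lowest that of Mrpl50 (-0.75 at 42.3% GC), while Mrpl57 (0.66 at 42.3% GC) was high in spite of a low GC content. The same library held 8315 CPM of mitochondrially encoded mRNAs, against 15744 to 17342 CPM in the other day 12 libraries and 10995 to 12037 CPM in steady state.

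**Figure D5:**
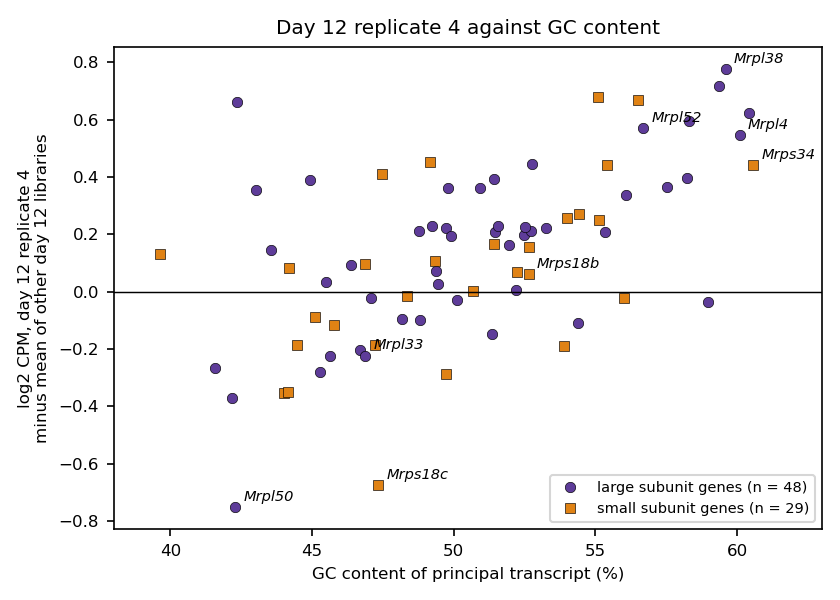
Log2 CPM of day 12 replicate 4 minus the mean of the other 3 day 12 libraries (y axis) against the GC content of the principal transcript (x axis, %) for the 48 large subunit (circles) and 29 small subunit genes (squares) tested. Points rise from lower left to upper right, with Mrpl50 lowest and Mrpl38 highest.

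The plot of day 12 replicate 4 against GC content covers called and uncalled members alike. Without this library 10 members were called higher and 4 lower, the lower ones being Mrpl24, Mrpl33, Mrpl9 and Mrps15, against a background of 29.2% of genes called in either direction. The median log2 fold change of the members was then 0.14, with 56 of 77 above 0, and all 8 members that had risen remained called. The part of GC content in the other results was not tested.

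Members also share neighbourhoods that bear on how reads were counted. They lie on 17 chromosomes, with 11 of the 78 on chromosome 11 and 8 on chromosome 17. In the table's coordinates 41 members overlap another gene, 31 overlap a gene on the opposite strand that had reads, and 18 overlap a gene with at least 0.5 times their own reads. Mrps11 and Mrpl46 overlap each other by 413 bases on opposite strands. All overlaps given here are between whole gene spans, introns included, and the overlap of exons was not examined. No label gives the strand setting of the counting, so values of members whose exons overlap another gene are uncertain to that extent.

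The other components of mitochondrial translation were described from lists of known genes. A list of 6 genes held mitochondrial ribosome proteins with other symbols. It included Oxa1l, an inner membrane protein that binds the ribosome (log2 fold change -0.058). Of these 6, 0 passed the test in either direction with edgeR and limma-voom, and 1 rose by DESeq2. With edgeR 1 was higher and 0 lower at an unadjusted p under 0.05. Their median log2 fold change was 0.10. Dap3, a GTP-binding protein of the small subunit, had 35.9, 39.8, 37.05 and 40.1 CPM at day 12 and 33.6, 34.2 and 34.1 CPM in steady state (log2 fold change 0.17, SE 0.09, edgeR adjusted p = 0.235). Aurkaip1, a further small subunit protein, had 31.1, 30.4, 31.9 and 42.99 CPM at day 12 and 23.4, 26.1 and 26.1 CPM in steady state (log2 fold change 0.44, SE 0.14, edgeR adjusted p = 0.0572). In both genes the groups did not overlap.

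Of 26 assembly factors of the mitochondrial ribosome, 0 passed the test with edgeR, limma-voom or DESeq2, with 1 higher and 1 lower at an unadjusted p under 0.05. Their median log2 fold change was -0.046, with 12 of 26 above 0. Gtpbp10, a GTPase needed for maturation of the large subunit, had 6.73, 7.94, 7.49 and 5.45 CPM at day 12 and 9.22, 10.6 and 8.46 CPM in steady state (log2 fold change -0.45, SE 0.17, edgeR adjusted p = 0.0926), and all day 12 values were below those of steady state. Mpv17l2, an inner membrane protein that takes part in assembly, had 8.87, 11.3, 11.8 and 16.9 CPM at day 12 and 7.85, 8.79 and 9.23 CPM in steady state (log2 fold change 0.50, SE 0.21, edgeR adjusted p = 0.123). Its groups overlapped, and without day 12 replicate 4 its log2 fold change was 0.31.

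A list of 18 genes held translation factors together with some genes that act on mitochondrial mRNAs. Of these 18 genes 2 rose (11.1%, against 10.1% of all genes tested), with a median log2 fold change of 0.15 and 14 above 0. Both that rose act on mitochondrial mRNAs. The elongation factors Tsfm and Gfm1 were not called (edgeR adjusted p = 0.0809 and 0.0953). Slirp, which with Lrpprc stabilises mitochondrial mRNAs, had 19.9, 18.7, 18.4 and 21.2 CPM at day 12, against 14.2, 13.2 and 13.95 CPM in steady state (log2 fold change 0.50, SE 0.11, edgeR adjusted p = 0.0105). Pde12, which removes poly-A tails in mitochondria, had 25.02, 21.9, 23.8 and 22.2 CPM at day 12, against 17.5, 18.3 and 18.5 CPM in steady state (log2 fold change 0.36, SE 0.10, edgeR adjusted p = 0.0354). Neither overlapped between the groups. Of 22 mitochondrial aminoacyl-tRNA synthetases and related enzymes 1 rose (4.55%), Qrsl1, a subunit of the amidotransferase that completes the charging of the glutamine tRNA. It had 9.64, 8.79, 8.47 and 8.99 CPM at day 12, against 6.402, 5.68 and 5.84 CPM in steady state (log2 fold change 0.59, SE 0.14, edgeR adjusted p = 0.0152), and the median of the list was 0.14. Without steady-state replicate 2 or 3, 0 genes of either list were called with edgeR.

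Among 14 tested genes of mitochondrial DNA transcription and maintenance, 1 fell (7.14%, against 10.2% of all genes tested). This was Mgme1, an exonuclease of mitochondrial DNA (log2 fold change -0.52, SE 0.16, edgeR adjusted p = 0.0476). Its call was lost with upper-quartile or RLE factors, with the filter of 1 CPM, and without day 12 replicate 1 or 2 or any steady-state library. Tfam, which packages mitochondrial DNA and starts its transcription, had 19.04, 19.5, 18.6 and 12.6 CPM at day 12 and 21.96, 21.9 and 21.4 CPM in steady state (log2 fold change -0.32, SE 0.15, edgeR adjusted p = 0.1802), without overlap and without a call, and -0.19 without day 12 replicate 4. Of 13 tested nuclear regulators of mitochondrial genes, 2 rose (15.4%, against 10.1% of all genes tested) and 1 (7.69%, against 10.2%), Nrf1, fell as given above. Ppargc1b, a transcriptional coactivator known for raising mitochondrial gene expression, had 17.3, 14.3, 17.3 and 16.8 CPM at day 12, against 5.899, 3.33 and 4.82 CPM in steady state (log2 fold change 1.81, SE 0.20, edgeR adjusted p = 0.000432). Esrra, a nuclear receptor that works with such coactivators, had 52.2, 44.6, 56.4 and 77.4 CPM at day 12, against 34.6, 35.6 and 32.1 CPM in steady state (log2 fold change 0.76, SE 0.18, edgeR adjusted p = 0.0151). Neither overlapped between the groups, Esrra was highest in day 12 replicate 4, and its call was lost without any one of the steady-state libraries.

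The RNAs that the mitochondrial ribosome is built on and translates come from mitochondrial DNA. The ribosomal RNA of the small subunit, mt-Rnr1, had 298, 226, 334 and 132 CPM at day 12, against 100.01, 88.2 and 86.9 CPM in steady state (log2 fold change 1.43, SE 0.28, edgeR adjusted p = 0.00803). That of the large subunit, mt-Rnr2, had 447, 354, 461 and 156 CPM at day 12 and 303, 273 and 272 CPM in steady state (log2 fold change 0.33, SE 0.32, edgeR adjusted p = 0.525). For mt-Rnr2 day 12 replicate 4 was below all other libraries, whereas for mt-Rnr1 it was the lowest of day 12 and above all steady-state libraries. Without it, the log2 fold change of mt-Rnr2 was 0.57. These are values of poly-A-selected libraries. Of 13 mitochondrial mRNAs 9 were tested, and mt-Co2, mt-Atp8, mt-Atp6 and mt-Co3 are listed with at most 1 read in a library. All 9 had log2 fold changes above 0, with a median of 0.33. With edgeR and limma-voom 0 passed the test and with DESeq2 2 did, and 2 were higher and 0 lower at an unadjusted p under 0.05. Without day 12 replicate 4, which held the least of them, all 9 were called higher, and mt-Rnr1 and mt-Rnr2 both were. In that setting 29.2% of all genes were called in either direction, against 20.3% with all libraries.

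Beside these, 2 other groups of genes were counted by symbol, both chosen after values were seen. Of 37 tested nuclear subunit genes of respiratory complex I, whose mitochondrial partners this ribosome makes, 10 rose and 0 fell with edgeR (median log2 fold change 0.34), with 0 lower also by DESeq2, limma-voom and at an unadjusted p under 0.05. Of 80 tested proteins of the cytosolic ribosome, 1 rose (1.25%) and 12 fell (15%, median -0.17). Over all genes tested 10.1% rose and 10.2% fell. The members, at 8 higher and 1 lower of 77 and a median of 0.17, lay between these groups, and no test of the differences between groups of genes was run.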

How the data were processed

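Per the labels' protocols, RNA of sorted Tim4+ peritoneal macrophages went at 30 ng into poly-A-selected directional libraries that were sequenced as single reads. The protocol names 3 biological replicates for each condition although day 12 has 4 samples, and p-values rest on the spread among the 7 libraries. The authors deposited raw read counts per gene, with 1 column per library. The submitters' processing notes name the aligner STAR (version 2.7.11a), the counter featureCounts of Subread (version 2.0.6) and the GRCm39 build. They also name DESeq2 1.40.2, SAMtools 1.10 and FastQC. Which annotation release, strand setting and handling of multiply mapped reads applied was not given in the sources used here.

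From the counts, edgeR 4.0.16 (quasi-likelihood, robust, TMM, in R 4.3.3) compared day 12 with steady state over the 15981 genes that passed filterByExpr (minimum count 10, total 15), with Benjamini-Hochberg adjustment over all of them at 0.05. The biological coefficient of variation was 0.219. The SE of a log2 fold change was its absolute value over the square root of F. Alternatives were DESeq2 1.42.0, limma-voom (limma 3.58.1), other normalisation factors and filters, a replicate block, and leaving out each library in turn. The test procedure was tested on simulated counts. Principal transcript lengths and GC contents came from GENCODE M21 (GRCm38), matched by Ensembl ID for all 78 members, and coordinates are the table's own (GRCm39) except those of RefSeq promoters.

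A floor of 3 counts in a library stood for 0.0777 to 0.0935 CPM, for counting error only. Named members were those called, the 4 highest and 4 lowest in CPM, the 3 largest differences without a call and a few of particular function. Of related lists the 4 genes with the lowest p could be named. The members and lists were chosen with earlier results of these data known.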

Additional observations from a re-analysis of the deposited data

Results flagged for a closer look

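In each of the 77 tested members the highest or lowest day 12 library was examined for a gap to its nearest neighbour that was large against the range of the 4 libraries (Dixon's 95% critical value). Chance gives such a gap in about 1 of 20 independent groups. Genes of a library share its depth and preparation, so the members are not independent and that rate is no yardstick here. Such a gap was found in 10 members, and its share over all genes tested was not examined. Day 12 replicate 4 was the library apart in 8 of them. It stood above the other day 12 libraries in Mrpl52 at 35.53 CPM, Mrps26 at 21.96 CPM, Mrps12 at 21.67 CPM, Mrpl38 at 34.98 CPM, Mrps24 at 29.32 CPM, Mrps7 at 28.77 CPM and Mrpl4 at 41.88 CPM. In Mrps18c it stood below them at 7.28 CPM. Day 12 replicate 3 stood below the others in Mrps18b at 19.33 CPM and in Mrps30 at 19.35 CPM. Of these genes Mrpl52 and Mrps18b passed the test between the groups, and in both all day 12 libraries remained above those of steady state.

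Outside the protein-coding rows, the processed pseudogene Mrpl27-ps averaged 2.161 CPM at day 12 and 1.04 CPM in steady state. It had 1.85, 2.26, 1.63 and 2.90 CPM at day 12, against 0.860, 0.924 and 1.34 CPM in steady state, with no overlap (log2 fold change 1.05, SE 0.29, edgeR adjusted p = 0.0332). Mrpl27 itself was not called (log2 fold change 0.33, edgeR adjusted p = 0.198). No label says how reads were shared between near-identical copies.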

How the results depend on the processing

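The median log2 fold change of the members was 0.14 to 0.21 under all 14 alternatives, and Mrpl52, Mrps18b and Mrpl33 were called in each. The count of members called higher, 8, was 4 without a filter on low counts, 11 with DESeq2, 10 with a filter of 1 CPM, 9 with upper-quartile or RLE factors, 8 with limma-voom and 2 to 10 when 1 library was left out. The share of all genes called in either direction, 20.3%, moved as well. It was 11.6% without the filter, 25.4% with DESeq2, 22.1% with the filter of 1 CPM and 10.7% to 29.2% with 1 library left out. With upper-quartile factors, RLE factors and limma-voom it was 20.5%, 20.3% and 20.2%. The count called lower, 1, was 1 to 4 when 1 library was left out, with 4 without day 12 replicate 4. With the replicate block 8 members were higher (Mrpl22 lost, Mrps28 gained) and 2 lower (Mrpl33 and Mrps15). In that fit 4278 of all genes were called, against 3242. Day 12 replicate 4 has no steady-state library of its number, so it added nothing to the group difference there. The block thus came close to leaving that library out, with a median log2 fold change of 0.14 and 56 members above 0 in both. Deviations of same-numbered libraries from their group means correlated at -0.14, 0.0077 and 0.20 for numbers 1, 2 and 3. Not every library correlated best with its own number. The labels name no day or batch shared by a number, and so few correlations cannot tell whether there was one. The sign of small uncalled differences reversed in a few cases: Mrpl58 and Gadd45gip1 were at -0.056 and -0.020 with the replicate block, and with 1 library left out the ranges were -0.062 to 0.14 for Mrpl23, -0.0188 to 0.22 for Mrps18c, -0.048 to 0.12 for Mrpl58, -0.0189 to 0.23 for Gadd45gip1 and -0.14 to 0.019 for Oxa1l. Over 52 named genes and 14 alternatives, 622 of 728 values kept direction and side of the threshold, 51 in 11 genes lost the call, 46 in 15 genes gained it and 9 in 5 genes reversed. Of related lists, genes called higher in the list with translation factors numbered 0 to 7, against 2, and mitochondrial mRNAs 0 to 9, against 0. The cause was not tested. Each tested member had at least 74 reads in a library, and the part of depth in the calls was not tested.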
